A study of Mus musculus with 2 samples.

Results

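The genes described here are 8 regulators of skeletal muscle formation out of 27998 genes counted in regenerating mouse muscle. They are 6 transcription factors, Pax7, Myf5, Myod1, Myog, Myf6 and Mef2c, and the fusion genes Tmem8c, now named Mymk, and Gm7325, now named Mymx. They were taken as a list by name, and all 8 were measured. The tissue was the tibialis anterior of C57Bl/6 mice (C57BL/6J in the methods of the study) injected with notexin, a snake venom toxin that destroys muscle fibres and leaves the muscle to regenerate. Single-cell libraries were made with the 10x Genomics 3′ chemistry, 1 at day 2 and 1 at day 7 after injury, each from 1 mouse. The report rests on the day 7 library, in which the authors' annotation names MuSCs (muscle stem cells), Myoblasts/Progenitors and 2 kinds of Myonuclei, Type IIb and Type IIx. The labels and the annotation both give the age of the day 7 mouse as 7 months. They disagree on its sex, with female in the labels and male in the annotation, and the library held 1 count of Xist against 4856 counts of 4 Y-linked genes. For the day 2 mouse the age is 7 months in the labels and 4 months in the annotation. Its sex is given with the same conflict, and its library held 5 counts of Xist against 6575 of the Y-linked genes.

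Skeletal muscle regenerates from muscle stem cells, which lie beside the fibre and carry the paired-box factor Pax7. The basic helix-loop-helix factors Myf5 and Myod1 commit these cells to the muscle lineage, Myog drives their terminal differentiation, and Myf6 acts mainly in maturing fibres. Factors of this family bind DNA at E-boxes as dimers with E proteins, and Mef2c is a MADS-box partner that acts with them on muscle genes. Differentiated myoblasts then merge into multinucleated fibres through the membrane proteins myomaker, encoded by Tmem8c, and myomixer, encoded by Gm7325.

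In GRCm38, with GENCODE vM21, each of the 8 was an annotated protein-coding gene with no other annotated gene overlapping it. Pax7 lies on the minus strand at chr4:139737062-139833528 and Myod1 on the plus strand at chr7:46376474-46379099. Myf5, at chr10:107482908-107486134, and Myf6, at chr10:107492853-107494737, are neighbours on the minus strand with 6718 bases between them. Myog lies on the plus strand at chr1:134289989-134292548, and Mef2c on the plus strand at chr13:83504034-83667080. The fusion genes are both on the minus strand, Mymk at chr2:27061636-27072179 and Mymx at chr17:45600971-45602102. The bases upstream of Myog and Myf5 are shown because these genes had opposite levels in MuSCs and in Myoblasts/Progenitors, and because the family binds E-boxes. The E-box CANNTG, which reads the same on both strands, is in capitals, and the sequences are from RefSeq, build GRCm38.p6, 5′ to 3′ on the gene's strand.
Myog, chr1:134289754-134289988, plus strand: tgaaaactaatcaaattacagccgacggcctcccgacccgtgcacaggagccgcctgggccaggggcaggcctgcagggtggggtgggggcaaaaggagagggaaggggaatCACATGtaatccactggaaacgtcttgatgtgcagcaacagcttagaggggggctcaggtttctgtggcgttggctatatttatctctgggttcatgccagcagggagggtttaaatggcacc
Myf5, chr10:107486135-107486384, minus strand: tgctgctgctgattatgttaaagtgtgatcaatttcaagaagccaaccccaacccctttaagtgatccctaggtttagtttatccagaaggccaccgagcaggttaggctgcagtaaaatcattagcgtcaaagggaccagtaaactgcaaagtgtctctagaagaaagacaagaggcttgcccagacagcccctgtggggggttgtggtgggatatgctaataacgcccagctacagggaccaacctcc
The 250 bases upstream of the Myog start held 2 E-boxes, CACATG shown here and CAGTTG from -12 to -7, within the bases that GENCODE places in the exon and that are left out above. The Myf5 bases held 0. Of 32851 such windows in the RefSeq table, 66.2% held at least 1 E-box and 31.8% at least 2, so the letters alone set neither gene apart. Windows were at hand for 4 of the 8 genes.

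The day 7 library had 4889 called barcodes with 32356088 counts. The annotation table gave 3385 of them a label, and 3196 cells were kept, with 750 genes and 1000 transcripts as lower limits and a mitochondrial share of 30% as the upper one. The 4 myogenic labels held 408 cells, of which 137 were MuSCs with a median of 4787 counts, 175 were Myoblasts/Progenitors with 10076, 76 were Myonuclei (Type IIb) with 3825.5 and 20 were Myonuclei (Type IIx) with 3502. The limits removed 105 of 201 Myonuclei barcodes. Markers of the fibre summed to 189603 CPM in Myonuclei (Type IIb) and 827 CPM in MuSCs, while MuSCs also held 647 CPM of 7 endothelial markers, with 5 or more such counts in 13 of 137 cells, and 965 CPM of 6 markers of fibro-adipogenic progenitors. The 2 libraries shared 4 called barcodes. Each time point had 1 library, so no test across animals could be made, and the 95% intervals given here are exact intervals that cover counting error only. Levels are CPM, the counts summed over the cells of a label relative to 1000000 counts of that label, and they were compared between labels for one gene at a time, since a 3′ count does not give levels per length. The labels were assigned by the authors from clusters of the same gene counts, so a difference between labels is a description.

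Pax7, the factor that marks muscle stem cells, was lower in Myoblasts/Progenitors than in MuSCs and near the limit of counting in Myonuclei. It stood at 474 CPM (426 to 526) in MuSCs, at 171 CPM (155 to 188) in Myoblasts/Progenitors, at 23.7 CPM (10.9 to 45.1) in Myonuclei (Type IIb) and at 0 counts in Myonuclei (Type IIx), where 3 counts would be 40.2 CPM. The intervals of MuSCs and Myoblasts/Progenitors were well apart, and all 9 Pax7 counts in Myonuclei (Type IIb) came from 1 cell with a low share of fibre gene counts, 2.09%. A count of Pax7 was found in 121 of 137 MuSCs, 88.3% (81.7 to 93.2), and in 95 of 175 Myoblasts/Progenitors, 54.3% (46.6 to 61.8). In all other labels 1.04% of cells had one, at a median of 6745 counts per cell. With each cell thinned to 2000 counts the shares were 60.6% and 24.6%, and 0.261% in the other labels.

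Myf5, the earliest commitment factor, followed Pax7. Its level was 314 CPM (275 to 357) in MuSCs and 122 CPM (108 to 136) in Myoblasts/Progenitors, and its 9 counts in Myonuclei (Type IIb) were in the same cell as those of Pax7. It was counted in 62.8% (54.1 to 70.9) of MuSCs and 47.4% (39.8 to 55.1) of Myoblasts/Progenitors, or 41.7% and 24.6% after thinning. In the other labels it was counted in 0.466% of cells.

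Myod1, the determination factor, was at like levels in the whole labels of stem cells and myoblasts, while the myoblast label held cells of 2 levels, described further on. Its level was 120 CPM (96.3 to 147) in MuSCs and 127 CPM (114 to 142) in Myoblasts/Progenitors, with overlapping intervals, and 10.6 CPM (2.87 to 27.0) in Myonuclei (Type IIb). It was counted in 30.7% of MuSCs and 36.0% of Myoblasts/Progenitors, or 19.7% and 16.0% after thinning. One myoblast with 58 counts held 18.4% of the Myod1 counts of Myoblasts/Progenitors, against 7 counts in the highest MuSC.

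Myog, the differentiation factor, was concentrated in few cells of one label. It stood at 34.6 CPM (22.6 to 50.7) in MuSCs and at 491 CPM (464 to 520) in Myoblasts/Progenitors, and the Myonuclei labels held 1 count between them. Only 40 of 175 Myoblasts/Progenitors, 22.9% (16.9 to 29.8), had a Myog count, and the highest cell held 196 of the 1218 counts, or 16.1%. The level was 420 CPM without that cell. In MuSCs 4 of 137 cells had a count, and 18 and 6 of their 26 counts were in 2 cells, neither of which had a count of Pax7. In the other labels 1.61% of cells had a Myog count.

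The fusion genes were counted almost entirely in Myoblasts/Progenitors. Myomaker, Tmem8c, stood at 50.01 CPM (41.6 to 59.6) there, in 28 of 175 cells, and at 1 count in each of the other 3 myogenic labels. Myomixer, Gm7325, stood at 81.1 CPM (70.2 to 93.1), in 22 of 175 cells, and at 0 counts in MuSCs and in both Myonuclei labels. For a count of 0, 3 counts were taken as the limit, which is 3.99 CPM in MuSCs and 6.61 CPM in both Myonuclei labels together. One cell held 58 of the 201 Gm7325 counts. In the other labels Tmem8c was counted in 0.359% and Gm7325 in 0.538% of cells.

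Myf6 and Mef2c, the factors of the fibre, had the reverse order of labels. Myf6 stood at 1 count in MuSCs, at 64.9 CPM (55.3 to 75.8) in Myoblasts/Progenitors, at 208 CPM (165 to 260) in Myonuclei (Type IIb) and at 174 CPM (92.7 to 298) in Myonuclei (Type IIx). The intervals of the Myonuclei labels overlapped. Mef2c was higher at each step, from 17.3 CPM (9.21 to 29.6) in MuSCs through 322 CPM (300 to 345) in Myoblasts/Progenitors and 462 CPM (396 to 535) in Myonuclei (Type IIb) to 1031 CPM (814 to 1288) in Myonuclei (Type IIx). All 20 Type IIx cells had a Mef2c count against 54 of 76 Type IIb cells, and the Mef2c level was 2.23-fold higher in Type IIx, a log2 ratio of 1.16 (0.75 to 1.55). Past 2-fold, 5.35% of the 1906 genes tested between these labels were higher in Type IIx and 11% lower, and of the 2 members tested Mef2c was higher and Myf6 was not past 2-fold. A median-of-ratios scaling gave a shift of 0.34 between these labels, and relative to it Mef2c was at 0.82, inside 2-fold.

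**Figure D1:**
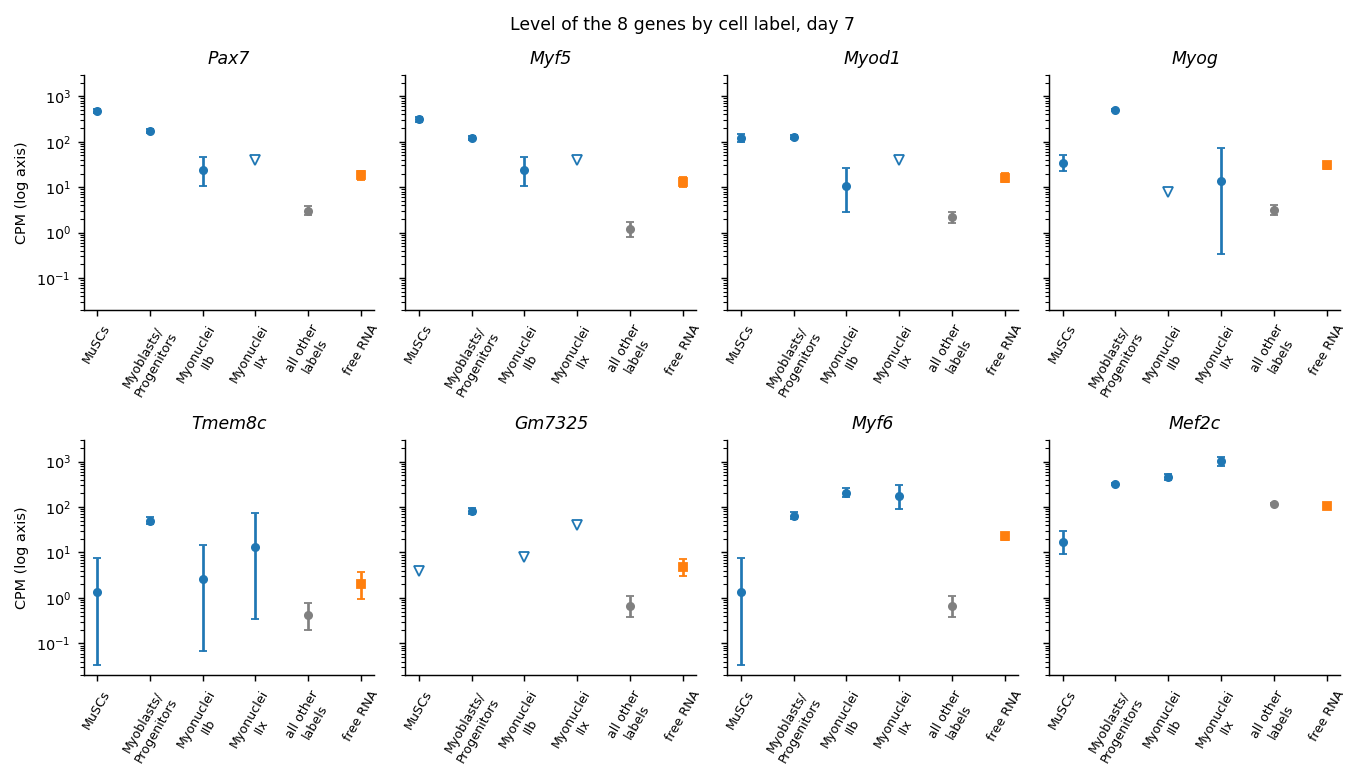
Level of each of the 8 genes, 1 panel per gene, in CPM on a log axis, for the 4 myogenic labels (blue), all other labels (grey) and free RNA (orange squares, barcodes with 1 to 100 counts) of the day 7 library. Points are summed counts with exact 95% Poisson intervals and open triangles are the level of 3 counts where the count was 0. Pax7 and Myf5 were highest in MuSCs, Myog, Tmem8c and Gm7325 in Myoblasts/Progenitors, and Mef2c in Myonuclei (Type IIx), while Myf6 was higher in both Myonuclei labels than in the other groups.

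Between Myoblasts/Progenitors and MuSCs, 5 of the 8 genes were past 2-fold higher and 2 past 2-fold lower, where 9.95% of the 9284 genes tested were higher and 17.9% lower. The log2 ratio was -1.47 (-1.68 to -1.26) for Pax7 and -1.37 (-1.62 to -1.12) for Myf5, 0.09 (-0.25 to 0.44) for Myod1, 3.83 (3.27 to 4.45) for Myog and 4.22 (3.44 to 5.13) for Mef2c. Myf6 and Tmem8c rest on 1 count in MuSCs, with log2 ratios of 5.61 (3.11 to 10.92) and 5.23 (2.73 to 10.55), and Gm7325 was at least 20.3-fold higher than the level that 3 counts in MuSCs would give. The median gene of this comparison was at -0.40, and a median-of-ratios scaling gave a shift of -0.51 between the labels. Relative to that shift Pax7 was at -0.97 and Myf5 at -0.86, inside 2-fold.

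Between both Myonuclei labels and Myoblasts/Progenitors, 1 of the 8 was past 2-fold higher and 6 lower, where 6.57% of the 8601 genes tested were higher and 48.6% lower. Myf6 was the higher one, at 3.12-fold or a log2 ratio of 1.64 (1.26 to 2.02), and Mef2c was at 0.79 (0.58 to 0.99). The lower ones included Pax7 at -3.11, Myf5 at -2.62, Myod1 at -3.85 and Myog at -7.80 (-13.11 to -5.32). Gm7325 was at least 12.3-fold lower. With so many genes lower in Myonuclei, little can be read from the number of members that were lower. The scaling shift here was -0.65, and relative to it Mef2c was at 1.44, past 2-fold.

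The label Myoblasts/Progenitors held cells of 2 kinds, and Pax7, Myf5, Myf6 and Mef2c were largely on one side or the other. The share of each cell's counts that came from 9 fibre genes (Acta1, Ckm, Myh1, Myh2, Myh4, Tnnt3, Tnni2, Mylpf and Ttn) was at most 0.990% in 120 cells and between 4.10% and 26.3% in the other 55, with no cell between 1% and 3%. The division at 1% was drawn after the values were seen. The 55 cells had a median share of 20.9%, close to the 19.4% of Myonuclei (Type IIb), and a median of 1717 genes per cell against 3185.5 in the 120.

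Pax7 was at 290 CPM in the 120 cells and at 0 counts in the 55, and Myf5 at 206 CPM and 1 count. Myog was at 810 CPM against 31.5 CPM, or 148 CPM with the division at 0.5%, and Myod1 at 183 CPM against 47.3 CPM. Myf6 and Mef2c were reversed, at 3.41 CPM against 154 CPM and at 25.3 CPM against 750 CPM. By cells, Mef2c was counted in 15 of the 120 and 54 of the 55, Myf6 in 5 and 36, and Pax7 in 95 and 0. The fusion genes were on both sides, Tmem8c in 20 of the 120 cells and 8 of the 55 and Gm7325 in 20 and 2. Of the 59 Gm7325 counts on the fibre side, 58 were in 1 cell of 32506 counts with a fibre share of 4.10%, which also held 26 of the 32 counts of Myog on that side, 16 of the 26 of Tmem8c and 33 counts of Mef2c. This cell was the one with the lowest fibre share of the 55.

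**Figure D2:**
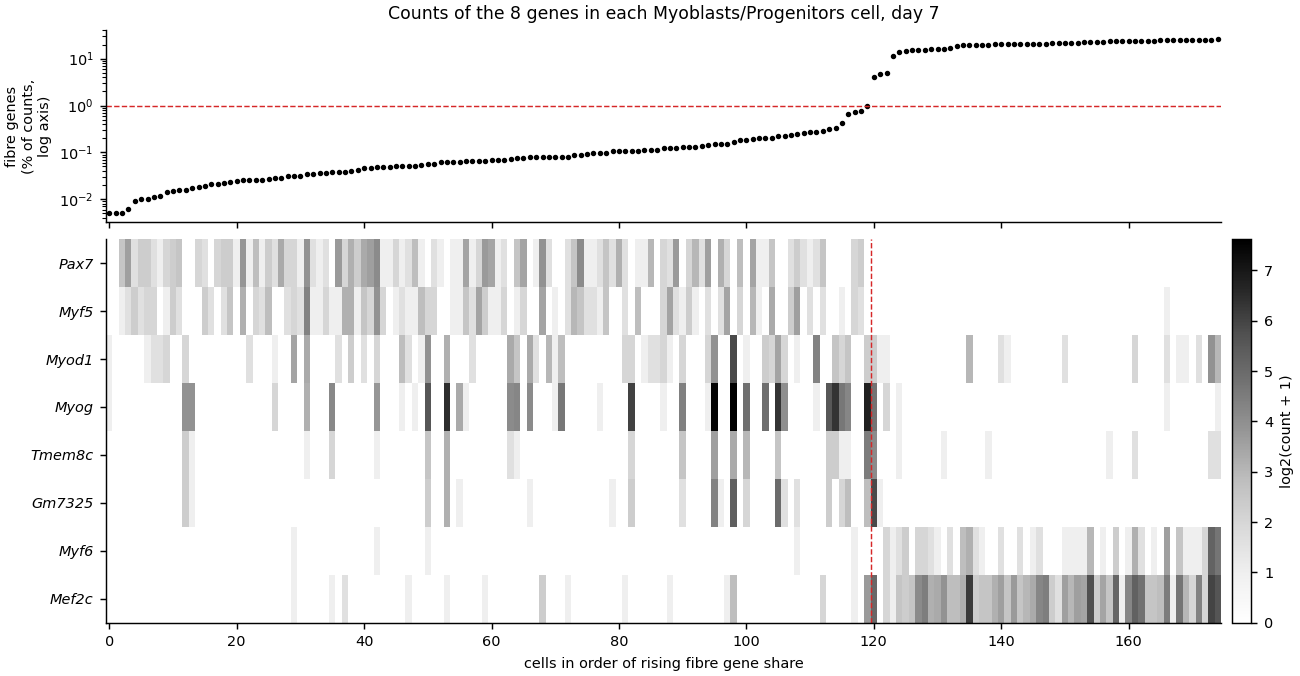
The 175 Myoblasts/Progenitors cells of day 7 in order of their share of fibre gene counts, with that share in percent on a log axis above (3 cells at 0 are drawn at 0.005, and the dashed line is at 1%) and log2(count + 1) of each of the 8 genes below. Pax7 and Myf5 counts fill the left side, with fibre shares of at most 0.990%, and Myf6 and Mef2c counts the right side, from 4.10% up.

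Without the fibre-rich cells the distance between Myoblasts/Progenitors and MuSCs changed for several members. Among the 120 cells, 3 of the 7 members tested were past 2-fold higher than in MuSCs and 0 lower, where 4.56% of 8722 genes were higher and 4.23% lower. The log2 ratio was -0.71 (-0.92 to -0.50) for Pax7, -0.61 (-0.86 to -0.36) for Myf5 and 0.61 (0.26 to 0.97) for Myod1, all inside 2-fold with intervals that exclude 0. Myog was 23.4-fold higher and Gm7325 at least 24.3-fold higher, and Tmem8c had a log2 ratio of 5.65 (3.14 to 10.97). Mef2c was at 0.55 (-0.40 to 1.58) in these cells and at 4.22 in the whole label. Without cells that held 5 or more leukocyte or endothelial marker counts it was at 2.00, on 33 counts against 4. Myf6 had too few counts to be compared.

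Against the Myonuclei labels, the counts of Myod1, Myog and the fusion genes in the 55 fibre-rich cells rested on few cells. Of the 6 members tested 4 were past 2-fold higher than in both Myonuclei labels and 0 lower, where 4.73% of 3868 genes were higher and 9.67% lower. The log2 ratio was 2.42 (0.97 to 4.36) for Myod1, 3.84 (1.26 to 9.19) for Myog and 2.54 (0.54 to 5.66) for Tmem8c, and Gm7325 was at least 8.79-fold higher. Mef2c, at 0.43 (0.23 to 0.64), and Myf6, at -0.40 (-0.78 to -0.01), were inside 2-fold. The calls of Myog, Tmem8c and Gm7325 did not hold without the cell at 4.10% fibre gene counts, chosen after its values were seen. The other 54 cells held 6 Myog counts, 10 Tmem8c counts and 1 Gm7325 count, too few to be tested, and Myod1 was at a log2 ratio of 2.34 (0.89 to 4.28). Of the 48 Myod1 counts of the 55 cells, 14, 7 and 7 were in cells of 154154, 119433 and 74080 counts. With each cell thinned to 2000 counts, 5 Myod1 counts stood against 1 in Myonuclei, too few to be tested.

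**Figure D3:**
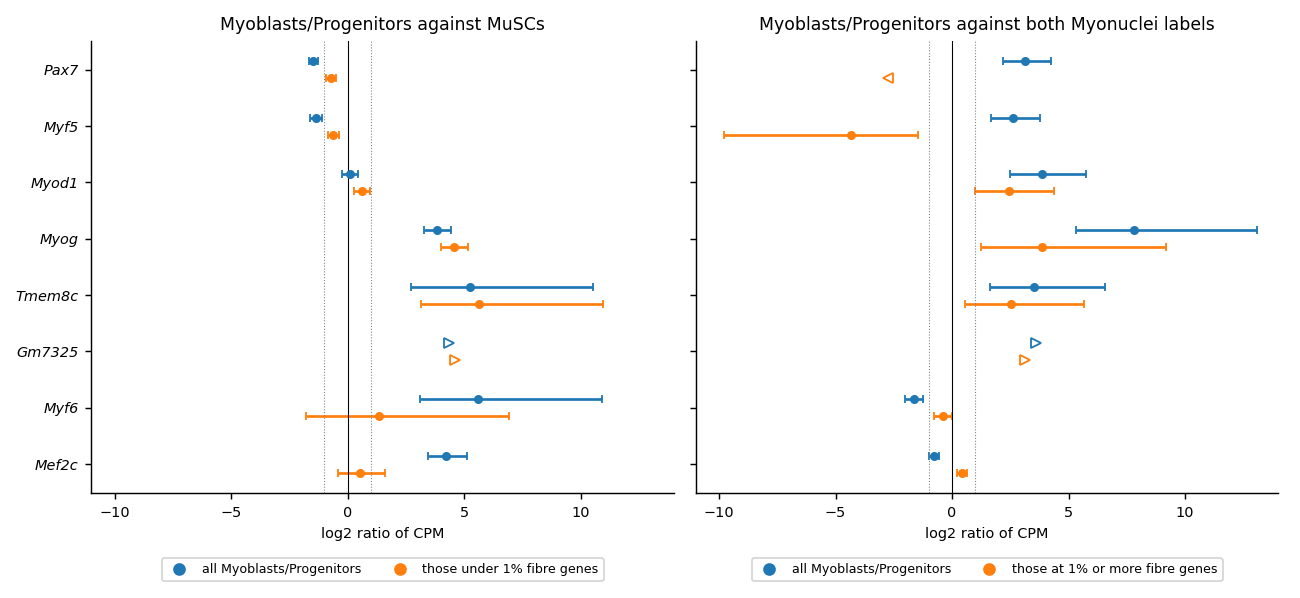
Log2 ratio of CPM for the 8 genes at day 7, with exact 95% intervals for counting error. On the left Myoblasts/Progenitors are set against MuSCs, for all 175 cells and for the 120 under 1% fibre gene counts, and on the right against both Myonuclei labels, for all cells and for the 55 at 1% or more. Open triangles are bounds against a count of 0 and dotted lines mark 2-fold. Leaving out the fibre-rich cells moved Mef2c from 4.22 to 0.55 and Pax7 from -1.47 to -0.71.

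The partners and targets of these factors were read from lists of named genes. The E proteins Tcf3, Tcf4 and Tcf12, with which the Myod1 family dimerises, summed to 907 CPM in MuSCs and 736 CPM in the 120 Myoblasts/Progenitors cells, and 0 of 3 were past 2-fold between them. In the 55 fibre-rich cells they summed to 25.6 CPM, and all 3 were past 2-fold lower in both Myonuclei labels than in Myoblasts/Progenitors, as were 48.6% of all genes tested. Of 10 inhibitors of the family tested, among them the Id proteins, which take up E proteins, and the Notch targets Hes1 and Heyl, 0 were past 2-fold between the 120 cells and MuSCs, and 7 were lower in Myonuclei than in Myoblasts/Progenitors, against the same 48.6% of all genes.

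Among 5 regulators of cell cycle exit, 2 were past 2-fold higher in the 120 cells than in MuSCs, where 4.56% of all genes were higher and 4.23% lower. These were Cdkn1c, the cyclin-dependent kinase inhibitor p57, at 2109 CPM against 339 CPM, a log2 ratio of 2.64 (2.45 to 2.83), and Rb1, the retinoblastoma protein gene, at 1.27 (0.39 to 2.26). After thinning Cdkn1c was at 2.66, and Rb1 had too few counts to be tested. Of 9 genes of the stem cell state 3 were past 2-fold lower, Calcr, the calcitonin receptor, at -2.19 (-3.07 to -1.36), Cd34 at -1.18 and Chodl at -1.09, and 0 were higher. Markers of other cell types also differed between these groups. Endothelial markers were at 103 CPM in the 120 cells and 647 CPM in MuSCs, markers of fibro-adipogenic progenitors at 666 and 965 CPM, leukocyte markers at 393 and 173 CPM and smooth muscle markers at 1210 and 544 CPM. Without cells that held 5 or more leukocyte or endothelial marker counts Cd34, which endothelial cells also carry, was at -0.62, inside 2-fold, and after thinning Chodl was at -0.90. Of 9 embryonic and neonatal muscle genes 7 were past 2-fold higher, with Actc1, cardiac actin, at 4.41 (3.35 to 5.74), Tnni1, slow troponin I, at 3.84 (1.92 to 6.93) and Chrng, the fetal subunit of the acetylcholine receptor, at 2.15 (0.93 to 3.66). Of 16 genes of membrane fusion and its partners 0 were higher and 1 lower, the adhesion molecule gene Jam2, at -1.76 (-2.66 to -0.90), a call that did not hold without those cells, where 13 counts stood against 4. The list of proliferation genes had 3 genes tested, of which 0 were past 2-fold. Of 9 cofactors and upstream factors Eya1, a transcriptional coactivator, was higher, at 1.62 (0.36 to 3.16), and 0 were lower. The adult fibre genes are not counted here, since most of the genes that set the division at 1% are among them.

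The fibre-rich cells were above the Myonuclei labels in the genes of the embryonic and neonatal list. All 8 embryonic and neonatal genes tested were past 2-fold higher in the fibre-rich cells, with Tnni1 at 594 CPM against 117 CPM, Myl4, the embryonic light chain, at 1060 CPM against 218 CPM and Myh8, the neonatal myosin heavy chain, at 67.0 CPM against 13.2 CPM. Tnni1, the slow troponin I, also differed between the Myonuclei labels, at 348 CPM in Type IIx and 71.2 CPM in Type IIb. Over all genes tested 4.73% were higher and 9.67% lower. Of 12 adult fibre genes 0 were past 2-fold in either direction, but 8 of the 9 genes by which these cells were chosen are on that list of 13, so nothing is read from it. Cdkn1a, the kinase inhibitor p21, was at 81 counts in 7 of the 55 cells against 4 counts in 4 Myonuclei, and at 9 counts without the cell at 4.10% fibre gene counts.

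Over the cells of the 4 labels together Pax7 was seen with Myf5, the fusion genes with Myog, and Myf6 with Mef2c. Myog was more frequent in cells with Myod1 than in cells without it. Of the 408 cells of the 4 labels 13 had no member, 104 had 1, 188 had 2, 68 had 3, 21 had 4, 12 had 5 and 2 had 6. Pax7 and Myf5 shared 157 cells, 72.4% of the Pax7 cells and 92.4% of the Myf5 cells. Myf6 and Mef2c shared 76 cells, 80.0% of the Myf6 cells and 50.3% of the Mef2c cells. Mef2c was in 24.0% of the cells without Myf6. The labels differ in both genes, with Mef2c in 8 of 137 MuSCs, 54 of 76 Type IIb cells and all 20 Type IIx cells. The pooled overlap of Myf6 and Mef2c therefore does not show pairing within a label. Of the 45 Myog cells 34 had Myod1, 24 had Tmem8c and 18 had Gm7325. Seen from the fusion genes, 24 of 31 Tmem8c cells and 18 of 22 Gm7325 cells had Myog, and 15 cells had both fusion genes. Of the 109 Myod1 cells 62 had Pax7, 54 had Myf5 and 34 had Myog, and of the 42 in MuSCs 32 had Pax7 and 2 had Myog. After thinning, Myog was in 16 of 55 Myod1 cells, 29.1%, and in 16 of 346 cells without Myod1, 4.62%. Pax7 was in 25.5% of the Myod1 cells and 31.8% of the rest, and Myf5 in 25.5% and 24.6%. In MuSCs alone, Pax7 was in 10 of 26 Myod1 cells and 70 of 106 others. The 28 pairs of members shared from 2 to 157 cells, with a median of 16.

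Overlap of the stem cell and differentiation factors moved with depth. Pax7 was counted in 15 of the 45 Myog cells, 33.3%, but after thinning to 2000 counts in 4 of 32, 12.5%. Thinning lowered Pax7 in the cells without Myog as well, from 55.6% to 32.5%. After thinning, all 10 Gm7325 cells and 12 of 13 Tmem8c cells had Myog, and 0 of either had Pax7 or Myf5. At full depth Pax7 was in 3 Tmem8c cells and 4 Gm7325 cells. The cell with most Myog had 196 counts of it, 58 of Myod1, 39 of Gm7325, 9 of Tmem8c and 0 of Pax7 and Myf5. Another cell, of 23028 counts, had 16 counts of Pax7, 14 of Myf5, 3 of Myod1 and 13 of Myog. No doublet caller was run here, the methods of the study describe removal of doublets before annotation, and the part of doublets in such cells was not tested.

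**Figure D4:**
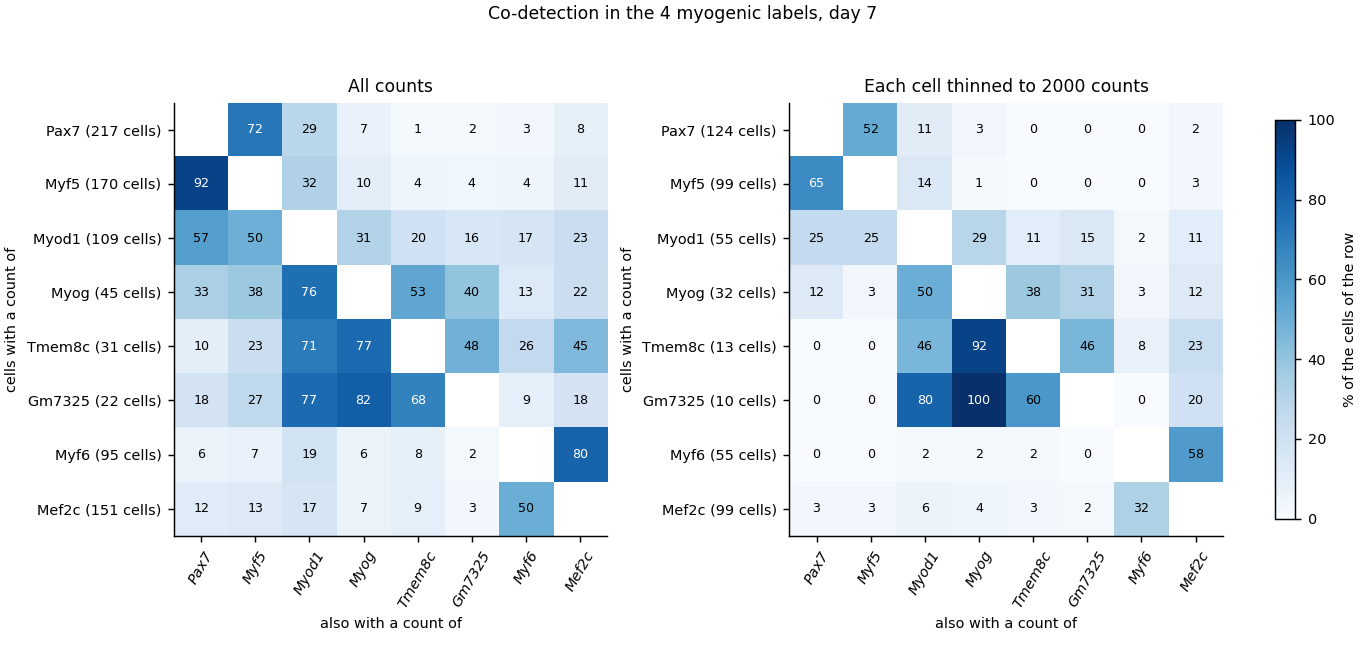
Percent of the cells with a count of the row gene that also had a count of the column gene, over the 408 cells of the 4 myogenic labels at day 7, with all counts on the left and with each cell thinned to 2000 counts on the right. Pax7 with Myf5 and Myog with Myod1 and the fusion genes share many cells, and the overlap of Myog with Pax7 goes from 33.3% to 12.5% of the Myog cells with thinning. In cells without Myog, Pax7 goes from 55.6% to 32.5%.

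The Myoblasts/Progenitors cells could be sorted by the members they held, a division made after the values were seen. Pax7 or Myf5 without Myog, Tmem8c or Gm7325 was held by 80 of 175 cells, both kinds by 22, and Myog or a fusion gene without Pax7 or Myf5 by 27. A further 44 cells held Myf6 or Mef2c and none of those 5 genes, and all 44 were fibre-rich. Of MuSCs 125 of 137 held Pax7 or Myf5 without the later genes. Of Myonuclei 67 of 76 Type IIb cells and 18 of 20 Type IIx cells held Myf6 or Mef2c and none of the 5.

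Among the cells under 1% fibre gene counts, 38 with Myog, Tmem8c or Gm7325 were set against the 80 with Pax7 or Myf5 and none of the 3. Myod1, which the division did not use, was at 389 CPM against 57.6 CPM, a log2 ratio of 2.75 (2.31 to 3.22), where 4.52% of 7410 genes were past 2-fold higher and 8.14% lower. Of 5 regulators of cell cycle exit 3 were higher. Cdkn1c was at 4654 CPM in the 38 cells and 573 CPM in the 80, with a count in 34 of 38 and 65 of 80 cells, Rb1 at 85.4 CPM and 15.5 CPM, and Cdkn1a at 296 CPM and 109 CPM. The log2 ratios were 3.02 (2.88 to 3.16) for Cdkn1c, 2.46 (1.57 to 3.44) for Rb1 and 1.45 (1.08 to 1.82) for Cdkn1a.

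Of 9 inhibitors of the Myod1 family 3 were past 2-fold lower in the 38 cells and 0 higher, against 8.14% and 4.52% of all genes. Hes1 was at 23.6 CPM against 106 CPM, Heyl at 113 CPM against 255 CPM and Bhlhe41, a transcriptional repressor, at 9.08 CPM against 41.0 CPM. Of the stem cell genes Chodl, at -1.67 (-2.02 to -1.34), and the receptor gene Notch3, at -1.42 (-1.82 to -1.03), were lower. Notch3 is also one of the 6 smooth muscle markers, and the part of smooth muscle RNA was not tested. Of 8 embryonic and neonatal genes 7 were higher, among them Tnnt2, cardiac troponin T, at 331 CPM against 4.43 CPM, Actc1 at 492 CPM against 19.96 CPM and Myh3, the embryonic myosin heavy chain, at 41.8 CPM against 1 count. The Mef2c relatives Mef2d, at 1.10 (0.47 to 1.74), and Mef2a, at 233 CPM against 115 CPM, were higher too. Of 15 fusion partners the adhesion molecule gene Jam3 was higher, at 272 CPM against 103 CPM, and Elmo2 lower. Cells with more counts are more often seen to hold a member, and the median was 9885 counts in the 80 cells and 12802 and 10717 in the groups from which the 38 came. With each cell thinned to 2000 counts the log2 ratio was 2.12 for Myod1, 3.14 for Cdkn1c, 1.26 for Cdkn1a, -2.34 for Heyl, -1.86 for Notch3 and 2.62 for Jam3, all past 2-fold. Mef2a, at 0.73, was then inside 2-fold, and Rb1, Hes1, Bhlhe41, Myh3, Mef2d and Elmo2 had too few counts to be tested. Without the cell with its highest count Cdkn1c was at 2.83, Mef2a at 0.96 and Mef2d at 0.90.

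Outside the myogenic labels the members other than Mef2c were, summed over all other labels, below their level in free RNA. The 4 labels held 88.7% to 94.97% of the counts of each of those 7 genes in kept cells. Against all other labels all 8 members were past 2-fold higher, where 11.5% of 14249 genes were higher and 30.6% lower, from 51.2-fold for Myod1 to 123-fold for Myf5, with Mef2c apart from the rest at 2.42-fold. The Mef2c call was lost with cells thinned to 2000 counts, at a log2 ratio of 0.85, and by the mean over cells, at 0.99. In free RNA, read from barcodes with 1 to 100 counts, Pax7 was at 18.1 CPM, Myog at 30 CPM and Gm7325 at 4.83 CPM, above their levels of 3.05, 3.18 and 0.668 CPM in the other labels. Among those labels the highest Pax7 level was in Smooth Muscle, at 17.0 CPM, and the highest Myog level in Neural, at 42.0 CPM, where all 9 counts were in 1 cell. The Smooth Muscle label held 7765 CPM of endothelial markers and 4412 CPM of smooth muscle markers. In 196 of its 232 cells there were 5 or more endothelial marker counts.

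Mef2c was the exception, with 72.9% of its counts outside the 4 labels. It was above 0 in all 19 other labels of at least 20 cells, from 23.4 to 383 CPM with a median of 111 CPM, against 103 CPM in free RNA. Endothelial (Artery) was highest, at 383 CPM (295 to 489), followed by Smooth Muscle at 330 CPM, and the 4 endothelial labels together stood at 315 CPM. The Smooth Muscle label also held endothelial markers, at 7765 CPM against 9224 CPM in those 4 labels. The part of endothelial RNA in its Mef2c level was not tested. The 6 monocyte and macrophage labels were at 111 CPM and the 3 labels of fibro-adipogenic progenitors at 25.5 CPM. The level in Endothelial (Artery) overlapped that of Myoblasts/Progenitors, and MuSCs, at 17.3 CPM, were below the lowest of the 19 labels, with an interval (9.21 to 29.6) that takes that level in.

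**Figure D5:**
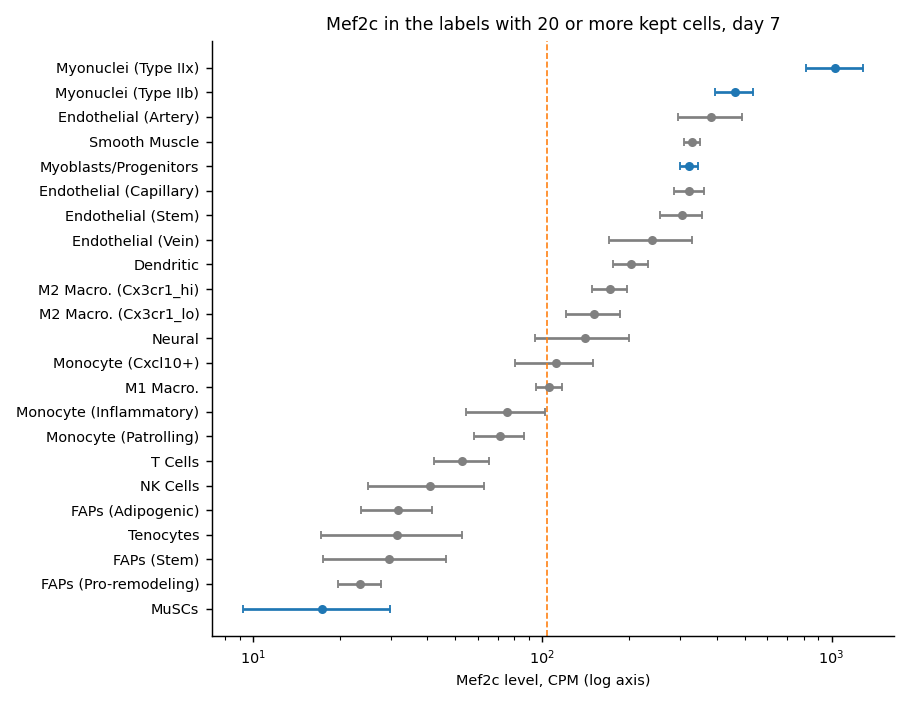
Mef2c level in CPM with exact 95% Poisson intervals in the 23 labels of at least 20 kept cells at day 7. The dashed line is the level in free RNA, 103 CPM. Myonuclei (Type IIx), at 1031 CPM, are highest, and endothelial and smooth muscle labels lie within the range of the myogenic labels while MuSCs lie at the low end. The Smooth Muscle label also held endothelial markers, at 7765 CPM.

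Over the 23 labels of at least 20 cells, the genes with the most similar pattern were read from the Pearson correlation of log2(CPM + 10) among 12733 genes. This is a description, with no test, since the labels share a library. Pax7 was closest to Myf5 (r = 0.98), Iqsec3 and Dcx, and Myf5 to Pax7, Sim2 and Dcx. Myod1 was closest to Fgfr4 (0.98), Chrna1 and Pde1c, and Myog to Gm28653 (0.95), Chrng (0.94) and Lrrn1 (0.88). Myf6 was closest to Trim63 (0.99), Ckmt2 and Art1, a pattern of the fibre labels. Tmem8c had Tnnt2 (0.89), Myh3 (0.88) and Myog (0.86) nearest, and Gm7325 had Tnnt2 (0.88), Tmem8c (0.85) and Arpp21 (0.85). Mef2c had Higd2a (0.90), Smdt1 (0.85) and Snx3 (0.84), none of them a member.

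The day 2 library had few myogenic cells. Its 21 MuSCs, of a median of 2628 counts, held 40 counts of Myod1 in 5 cells, 8 of Myf5, 4 of Pax7, 1 of Mef2c and 0 of Myog, Myf6, Tmem8c and Gm7325, where 3 counts would be 37.5 CPM. Myod1 was at 500 CPM (357 to 680) in them. Myog, Tmem8c and Gm7325 were at 0 counts in the 3150 cells of the other labels as well, while Myod1 had 71 counts in 9 of those cells and Myf5 10 counts in 3. Of 6 Myonuclei (Type IIb) 1 held 2 counts of Myf6. Mef2c was at 137 CPM in Smooth Muscle, 111 CPM in the endothelial labels and 55.2 CPM in the monocyte and macrophage labels, below its day 7 level in each. The mouse, the library and the day cannot be told apart, and the annotation gives the day 2 mouse as 4 months old where the labels give 7.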

How the data were processed

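Cells of each tibialis anterior were made into 10x Genomics 3′ libraries. The authors mapped the reads to mm10 with Cell Ranger (3.1.0 in the labels and methods, 3.0.1 in the matrix headers) and deposited raw and filtered matrices of counts per gene and barcode. They also deposited matrices in which SoupX 1.4.5 had removed free RNA, which hold estimated counts, and a table with a cell type label per barcode, made with Seurat (3.1.5 in the submitters' processing notes, a later version in the methods). Doublets had been taken out by the authors ahead of labelling, according to their methods, and no doublet caller was run here.

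The uncorrected counts were used. Kept cells had a label, 750 genes or more, 1000 transcripts or more and a mitochondrial share up to 30%, all read from the SoupX values. Counts were summed per label and gene and divided by the total of the label (CPM). Intervals are exact Poisson for levels, Clopper-Pearson for shares and conditional binomial for ratios, at 95%. Genes with at least 20 counts over both groups entered a comparison, and past 2-fold was called. A count of 0 was set to 3 counts for a bound. For shares at equal depth, each cell was thinned to 2000 counts in 1 seeded draw, and shallower cells were left out, which kept 132 of 137 MuSCs, 401 of 408 myogenic cells and 2677 of 2788 others. Calculations used Python 3.11.15, numpy 2.4.6, scipy 1.17.1 and pandas 2.3.3 and were tested on simulated data. With 1 library per day no p-value was computed. The 2 libraries had 32356088 (day 7) and 41123913 (day 2) counts in called barcodes, and the intervals cover counting error only.

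The genes named are the 8 members, up to 4 genes per list with the largest fold in the comparison described (E proteins, inhibitors, cofactors, cell cycle exit, proliferation, stem cell state, fusion partners, embryonic and neonatal genes, adult fibre genes), and the 3 genes closest to each member over labels. Members and lists were chosen with earlier results of these data known. Alternatives were the SoupX values, no or stricter limits on cells, leaving out cells with 5 or more leukocyte or endothelial counts, thinning, the mean over cells, median-of-ratios scaling, no minimum count, a 4-fold threshold and detection from 2 counts. Positions are from GENCODE vM21, which matched 27645 of 27998 gene identifiers, and promoter windows from RefSeq.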

Additional observations from a re-analysis of the deposited data

Results flagged for a closer look

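Counts of the 8 genes were also present in called barcodes that the annotation table does not hold. Of 477 such day 7 barcodes that passed the same limits as the kept cells, 38, or 7.97% (5.70 to 10.8), had 3 or more counts summed over the members other than Mef2c, against 25 of 2788 cells of the other labels, or 0.897% (0.581 to 1.32), and 239 of 408 cells of the 4 myogenic labels, or 58.6%. Over all labelled cells the share was 8.26%, within the interval of the unlabelled barcodes. The 38 barcodes had a median of 8170 counts, against 2879 over all 477. The highest Myog count among them was 215 and the highest Gm7325 count 94, both in 1 barcode of 57133 counts that also held 27 counts of Myod1 and 12 of Tmem8c. The highest values in labelled myogenic cells were 196 and 58. These barcodes were looked at because they lie outside the labelled cells, and why they carry no label was not tested. The methods of the study describe limits on cells, followed by removal of putative doublets and of a noisy cluster. The 25 labelled cells had a median of 17745 counts against 6745 over all other labels, and 16 of them were among the 232 Smooth Muscle cells. Of those 232 cells, 196 held 5 or more endothelial marker counts.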

How the results depend on the processing

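No paired analysis was possible because each time point had 1 library. No called log2 ratio changed direction under the alternatives run. In the 3 comparisons of whole labels, 201 log2 ratios kept their call, 2 went past 2-fold and 13 lost the call, under the 4-fold threshold, median-of-ratios scaling, the mean over cells or thinning, which left too few counts of Tmem8c and Gm7325 to test. The Myog level in Myoblasts/Progenitors was 491 CPM, and 420 CPM without the cell with the highest count, an alternative chosen after seeing the data. The share of Myoblasts/Progenitors with Myog was 22.9%, and 16.0% both with at least 2 counts required and with cells thinned to 2000 counts. The share of Myog cells with Pax7 was 33.3%, 13.3% with at least 2 counts and 12.5% thinned. Between Myoblasts/Progenitors and MuSCs, 5 members were higher, 3 after thinning, and 2 were lower, which became 0 with median-of-ratios scaling, 0 at 4-fold and 1 after thinning. Between Myonuclei and Myoblasts/Progenitors, 1 member was higher, which became 2 with median-of-ratios scaling, 0 at 4-fold and 2 after thinning. Against all other labels, Mef2c was inside 2-fold after thinning, at a log2 ratio of 0.85, and by the mean over cells, at 0.99. Alternatives for the comparisons within Myonuclei and within Myoblasts/Progenitors were chosen after seeing the data, and of their log2 ratios of members 166 kept their call, 16 lost it and 3 gained one. With the division of Myoblasts/Progenitors at 0.5% fibre gene counts, 7 of 16 levels left their interval, among them Myog above the division, from 31.5 to 148 CPM, and at 3% 0 of 16 did.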
